A study of Bos taurus with 18 samples.

Results

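Triglyceride is the main lipid of milk fat, and it is built in the mammary secretory cell from glycerol 3-phosphate and fatty acids. GPAM, the mitochondrial glycerol-3-phosphate acyltransferase, adds the first fatty acid, LPIN1, a phosphatidate phosphatase, makes diacylglycerol, and DGAT1 and DGAT2, unrelated diacylglycerol acyltransferases, add the last fatty acid. The fatty acids reach the cell partly from plasma lipoproteins, whose triglyceride lipoprotein lipase (LPL) hydrolyses. CD36 takes fatty acids up at the plasma membrane, and FABP3, the heart-type fatty acid binding protein, carries them in the cytosol. Macrophages also express LPL and CD36.

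These 7 genes were followed in milk cells of cows with mastitis, an inflammation of the udder, of cows with endometritis, an inflammation of the uterine lining, and of healthy cows. The probe sets of the 7 genes were found by gene symbol alone, but the genes were chosen with earlier results of these data known. The genes are 7 of the 9155 named on the array, and each was represented by a single probe set among 24016 tested. One Affymetrix bovine genome array was hybridised per cow, with 6 cows in each of the 3 groups and 18 arrays in all. The diseased cows were in lactations 1 to 8 and 10 to 220 days after calving, and their ages are not given in the labels used here. The healthy cows had milk somatic cell counts below 100000 per ml, and most were 10 to 100 days after calving. Their stated age of 2 to 4 years stands beside stated lactations of up to 8, which cannot both hold for every cow. The labels used here give no pathogen or treatment and pair no cows, and the cows of a group are numbered only to name them. The cells were a mixture shed into milk, so that in these bulk samples fewer cells of a type and less RNA per cell cannot be told apart.

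The values are the deposited normalised log2 intensities, which run from a floor of 2.43 to 14.23. The median of all values is 2.55, and a value at or under it is called background here. A log2 difference is the mean of one group minus the mean of the other with its standard error (SE), and a gene was called at an adjusted p under 0.05 (limma, Benjamini-Hochberg over all tested probe sets). A probe set's level cannot be set against that of another probe set, and a fold for a gene near the floor may be too small. Mastitis arrays carried 4689 called probe sets against healthy arrays, or 19.5% of those tested. Endometritis arrays carried 0 against healthy arrays, or 0%. Of the 24016 probe sets 1047 had an unadjusted p under 0.05 with limma there, some of which chance alone would pass. Because many probe sets lie near the floor, the share that chance would pass is not known here. Mastitis arrays carried 3493 against endometritis arrays, or 14.5%.

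In mastitis, 5 of the 7 genes were called against healthy cows. GPAM, FABP3 and LPL fell and DGAT1 and DGAT2 rose, while CD36 and LPIN1 did not pass the test. Calls higher in mastitis made up 10.2% of all probe sets and calls lower made up 9.35%. With 1 probe set per named gene, 11.3% were called higher and 15.8% lower. The median log2 difference of the 7 genes was -1.31, and that of all probe sets was 0. The arrays of the 2 groups did not overlap for 4 of the 7 genes, 3 of them below and 1 above healthy cows; over all probe sets 5.84% lay wholly below and 6.22% wholly above.

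Against endometritis 5 of the 7 genes were called as well: DGAT1 and DGAT2 were higher in mastitis and GPAM, FABP3 and LPL lower. Over all probe sets 7.99% were called higher and 6.55% lower in that comparison, and over named genes 9.14% and 10.9%. The median log2 difference of the 7 genes was -1.43. The arrays of 1 gene lay wholly above and those of 3 genes wholly below the endometritis arrays, beside 4.43% and 3.91% of all probe sets.

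**Figure D1:**
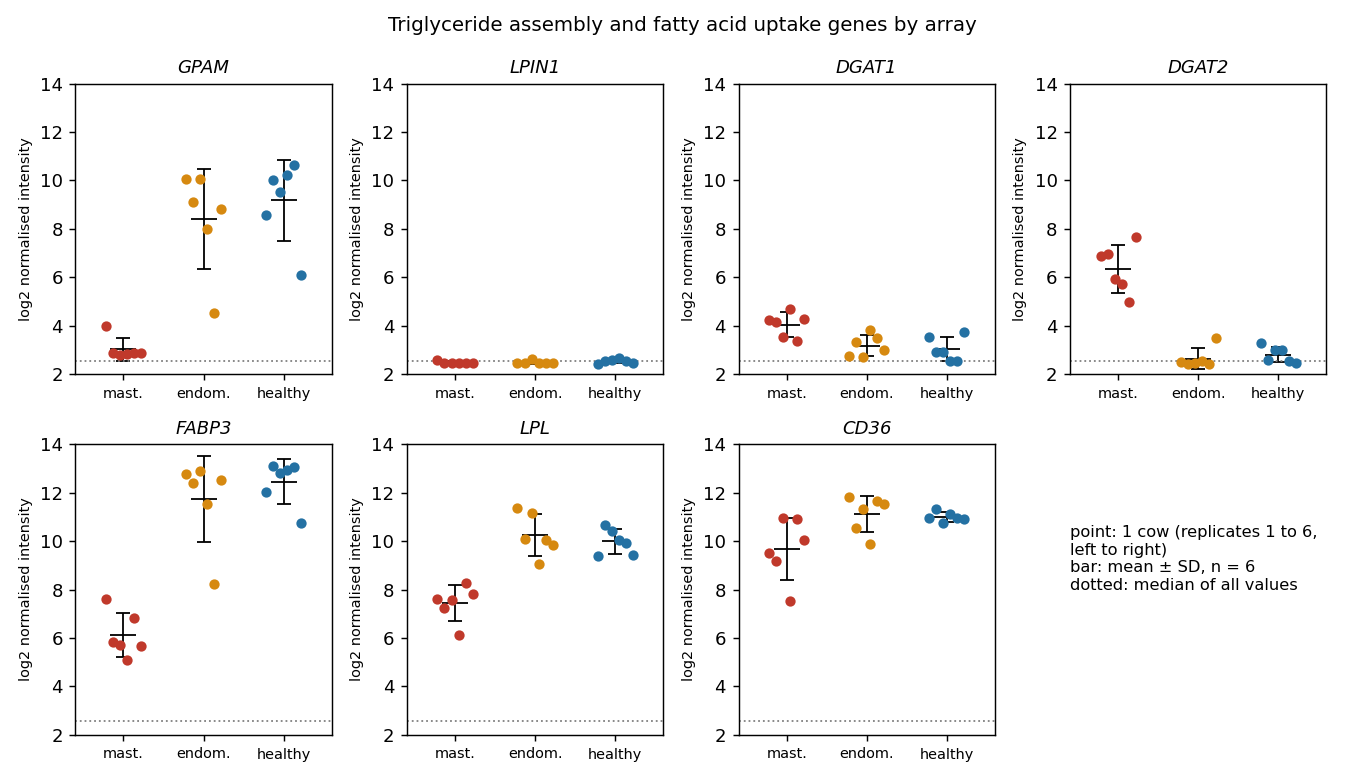
Normalised log2 intensity (vertical axis) of the 7 triglyceride and fatty acid uptake genes, with 1 panel per gene, 1 point per cow, bars at the mean ± SD of mastitis, endometritis and healthy cows (n = 6 each) and a dotted line at the median of all values. GPAM and FABP3 are low on all 6 mastitis arrays, DGAT2 is high on all 6, and LPIN1 lies between 2.43 and 2.68 on all 18.

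GPAM, the entry enzyme, was close to the floor in mastitis. Its log2 intensity had a lowest, median and highest value of 2.79, 2.86 and 3.99 in mastitis, 4.53, 8.97 and 10.06 in endometritis, and 6.09, 9.77 and 10.64 in healthy cows. Every mastitis array lay under every endometritis and every healthy array, with gaps of 0.54 to the endometritis arrays and 2.10 to the healthy arrays. GPAM averaged 3.03 ± 0.47 in mastitis and 9.18 ± 1.67 in healthy cows (SD, n = 6 each), a log2 difference of -6.15 ± 0.88 (SE), or 70.9-fold lower, with a limma adjusted p of 0.000244. It was the 13th largest fall of the 24016 probe sets. Against endometritis, where GPAM averaged 8.43 ± 2.06 (SD, n = 6), the mastitis arrays were lower by a log2 difference of -5.39 ± 0.88, or 42.1-fold, with a limma adjusted p of 0.000889. The comparison with endometritis uses the same mastitis arrays as the comparison with healthy cows, here and for each gene that follows.

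LPIN1, the phosphatase of the middle step, gave no signal that could be compared. It read between 2.43 and 2.68 on all 18 arrays, and 13 of them were at or under the background value: 5 of 6 in mastitis, 5 of 6 in endometritis and 3 of 6 in healthy cows. The log2 difference of mastitis from healthy cows was -0.07, with a 95% interval of -0.16 to 0.02 and a limma adjusted p of 0.298. No fold is given for LPIN1, and these arrays say nothing of its level beyond that bound.

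DGAT1, an enzyme of the endoplasmic reticulum that closes the pathway, was higher in mastitis by a small amount. Its lowest, median and highest values were 3.37, 4.19 and 4.70 in mastitis, 2.71, 3.17 and 3.83 in endometritis, and 2.54, 2.90 and 3.74 in healthy cows. The 3 groups overlapped, and 6 of 6 mastitis arrays were above the healthy mean. At background were 2 of 6 healthy arrays, so that the fold from healthy cows may be too small. DGAT1 averaged 4.05 ± 0.50 in mastitis and 3.02 ± 0.50 in healthy cows (SD, n = 6 each), a log2 difference of 1.02 ± 0.27 (SE), or 2.03-fold, with a limma adjusted p of 0.0145. Against endometritis, with a mean of 3.18 ± 0.45, mastitis was higher by 0.87 ± 0.27, or 1.82-fold, with a limma adjusted p of 0.0443. That last call was lost in 10 of 18 fits that each left out 1 array, with adjusted p between 0.0548 and 0.108: mastitis 1, 2, 4 or 6, endometritis 1, 2, 3 or 6, and healthy 2 or 3.

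The DGAT1 call against healthy cows was lost when the 3′ minus 5′ difference of the GAPDH control probe sets, used here as a sign of the state of the RNA, was taken into the model. It was 0.392 ± 0.227 in mastitis, 0.579 ± 0.251 in endometritis and 0.879 ± 0.396 in healthy cows (SD, n = 6 each). Because it differed between the groups, its part and that of the group cannot be fully told apart. Calls over all probe sets in mastitis against healthy cows then numbered 1428 instead of 4689. With that difference as a covariate, the log2 difference of DGAT1 was 0.58 in mastitis against healthy cows, with a limma adjusted p of 0.313, and 0.70 against endometritis, with an adjusted p of 0.0803. GPAM, DGAT2, FABP3 and LPL stayed past the threshold in both comparisons under the same covariate, and the log2 difference of GPAM from healthy cows was then -5.12 with a limma adjusted p of 0.00983.

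DGAT2, the other enzyme of the last step, rose in every mastitis array. Its lowest, median and highest values were 4.97, 6.40 and 7.66 in mastitis, 2.43, 2.47 and 3.50 in endometritis, and 2.46, 2.79 and 3.27 in healthy cows. The lowest mastitis array lay above the highest array of both other groups, where 4 of 6 endometritis and 2 of 6 healthy arrays were at background. DGAT2 averaged 6.35 ± 0.99 in mastitis and 2.81 ± 0.32 in healthy cows (SD, n = 6 each), a log2 difference of 3.54 ± 0.37 (SE), or 11.6-fold, with a limma adjusted p of 2.71e-05. It was the 125th largest rise of the 24016 probe sets. Against endometritis, with a mean of 2.64 ± 0.42, it was higher by 3.71 ± 0.37, or 13-fold, with a limma adjusted p of 2.55e-05. Both folds may be understated because the lower groups were near the floor.

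FABP3, the cytosolic carrier, had the largest log2 difference of the 7 genes in mastitis. Its lowest, median and highest values were 5.11, 5.77 and 7.60 in mastitis, 8.22, 12.48 and 12.91 in endometritis, and 10.75, 12.88 and 13.11 in healthy cows. All mastitis arrays lay under all others, by at least 0.63 against endometritis and 3.16 against healthy cows. FABP3 averaged 6.13 ± 0.91 in mastitis and 12.46 ± 0.92 in healthy cows (SD, n = 6 each), a log2 difference of -6.33 ± 0.72 (SE), or 80.3-fold lower, with a limma adjusted p of 4.67e-05. It was the 9th largest fall of the 24016 probe sets. Against endometritis, with a mean of 11.74 ± 1.79, the difference was -5.61 ± 0.72, or 48.8-fold lower, with a limma adjusted p of 0.000152.

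LPL, which releases fatty acids from lipoproteins, also fell, and stayed well above the floor on every array. Its lowest, median and highest values were 6.14, 7.60 and 8.29 in mastitis, 9.05, 10.06 and 11.37 in endometritis, and 9.39, 10.00 and 10.68 in healthy cows. The mastitis arrays again overlapped with neither group. LPL averaged 7.45 ± 0.73 in mastitis and 9.99 ± 0.52 in healthy cows (SD, n = 6 each), a log2 difference of -2.54 ± 0.41 (SE), or 5.83-fold lower, with a limma adjusted p of 0.000523. Against endometritis, with a mean of 10.26 ± 0.87, the difference was -2.82 ± 0.41, or 7.05-fold lower, with a limma adjusted p of 0.000352.

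CD36, the uptake protein, was below healthy cows on most mastitis arrays but did not pass the test. Its lowest, median and highest values were 7.54, 9.78 and 10.96 in mastitis, 9.87, 11.43 and 11.82 in endometritis, and 10.73, 10.96 and 11.34 in healthy cows. Mastitis 3 and 5 read 10.96 and 10.94, within the healthy range, while mastitis 4 was the lowest of the group for both CD36 and LPL. The log2 difference of mastitis from healthy cows was -1.31 ± 0.49 (SE), with a 95% interval of -2.35 to -0.26 and a limma adjusted p of 0.0774. From endometritis it was -1.43 ± 0.49, with an interval of -2.48 to -0.39 and an adjusted p of 0.064. CD36 passed the limma test against healthy cows without mastitis 3 (adjusted p = 0.0349) or mastitis 5 (0.0353), and against endometritis without mastitis 3 (0.0288), mastitis 5 (0.029) or endometritis 4 (0.0319).

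**Figure D2:**
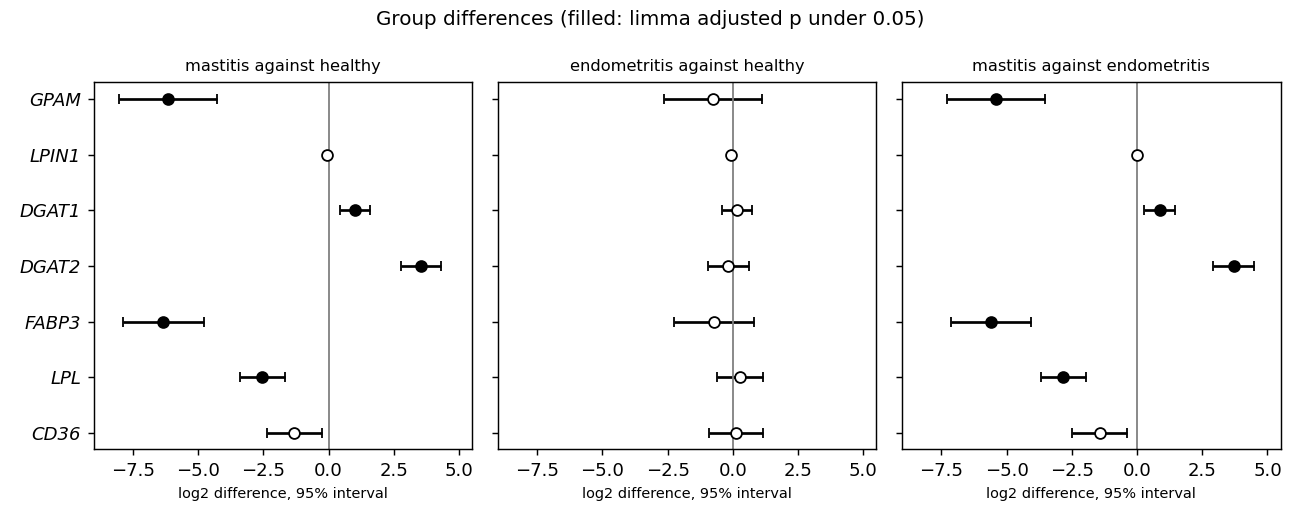
Log2 difference with its 95% interval (horizontal axis) of each of the 7 genes, in 1 panel each for mastitis against healthy, endometritis against healthy and mastitis against endometritis; filled points passed the limma test. GPAM and FABP3 lie near -6 in mastitis against healthy cows, DGAT1 and DGAT2 lie to the right of 0, and all intervals of endometritis against healthy cows include 0.

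In endometritis, 0 of the 7 genes were called against healthy cows with limma, where 0% of all probe sets were called, and 0 of the 7 had an unadjusted p under 0.05. For 0 of the 7 did the arrays of the 2 groups fail to overlap, beside 0.0999% of all probe sets that lay wholly above and 0.104% wholly below healthy arrays. The largest log2 difference was that of GPAM at -0.75, with a 95% interval of -2.63 to 1.12 and a limma adjusted p of 0.956. FABP3 differed by -0.72 (interval -2.25 to 0.82) and LPL by 0.27 (interval -0.59 to 1.14). DGAT1 differed by 0.16 (interval -0.42 to 0.74), DGAT2 by -0.16 (interval -0.94 to 0.61) and CD36 by 0.12 (interval -0.92 to 1.17). The intervals for GPAM and FABP3 leave room for changes of over 2 log2 units, so that endometritis was not shown to leave these genes as they are in healthy cows. Endometritis 5 alone read 4.53 for GPAM and 8.22 for FABP3, under every other endometritis and healthy array, and without it the GPAM difference was 0.03.

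GPAM and LPIN1 stand before diacylglycerol in the pathway and DGAT1 and DGAT2 after it, and the genes of these steps were set against each other within each array. For each pair the difference of the 2 log2 values on an array was compared between groups by a two-sided exact permutation test. The smallest p that 6 arrays against 6 allow is 0.00216, and p-values were adjusted over the 12 tests made. The level of each difference depends on the probe sets, so only its shift between groups is read.

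GPAM and the DGAT genes moved apart in mastitis. GPAM minus DGAT2 averaged -3.32 ± 0.97 in mastitis and 6.37 ± 1.65 in healthy cows (SD, n = 6 each), a shift of -9.69 with an exact permutation p of 0.00216 (adjusted 0.00433). It ran from -4.81 to -2.12 in mastitis, from 2.10 to 7.60 in endometritis and from 3.63 to 8.09 in healthy cows, without overlap of mastitis with the others. GPAM minus DGAT1 averaged -1.01 ± 0.62 in mastitis and 6.16 ± 2.14 in healthy cows, a shift of -7.17 with an adjusted exact permutation p of 0.00433. Against endometritis, where the 2 differences averaged 5.78 ± 2.06 and 5.25 ± 2.37, the shifts in mastitis were -9.10 and -6.26, each with an adjusted exact permutation p of 0.00433. In endometritis against healthy cows the shifts were -0.59 and -0.91, with adjusted exact permutation p of 0.628 and 0.6. GPAM by itself lay wholly lower in mastitis than in both other groups, and DGAT2 wholly higher. The smallest possible p of GPAM minus DGAT2 therefore followed from the single genes. The GPAM pairs were chosen with earlier results known, repeat the differences of the single genes and are no separate support for them.

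The pairs with LPIN1 repeat the change of the DGAT genes, because LPIN1 was at background. LPIN1 minus DGAT2 shifted by -3.61 and LPIN1 minus DGAT1 by -1.09 in mastitis against healthy cows, with adjusted exact permutation p of 0.00433 and 0.0186. Against endometritis the same pairs shifted by -3.71 and -0.87, with adjusted exact permutation p of 0.00433 and 0.0195. These values show unequal change of 2 probe sets and not that LPIN1 was unchanged.

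**Figure D3:**
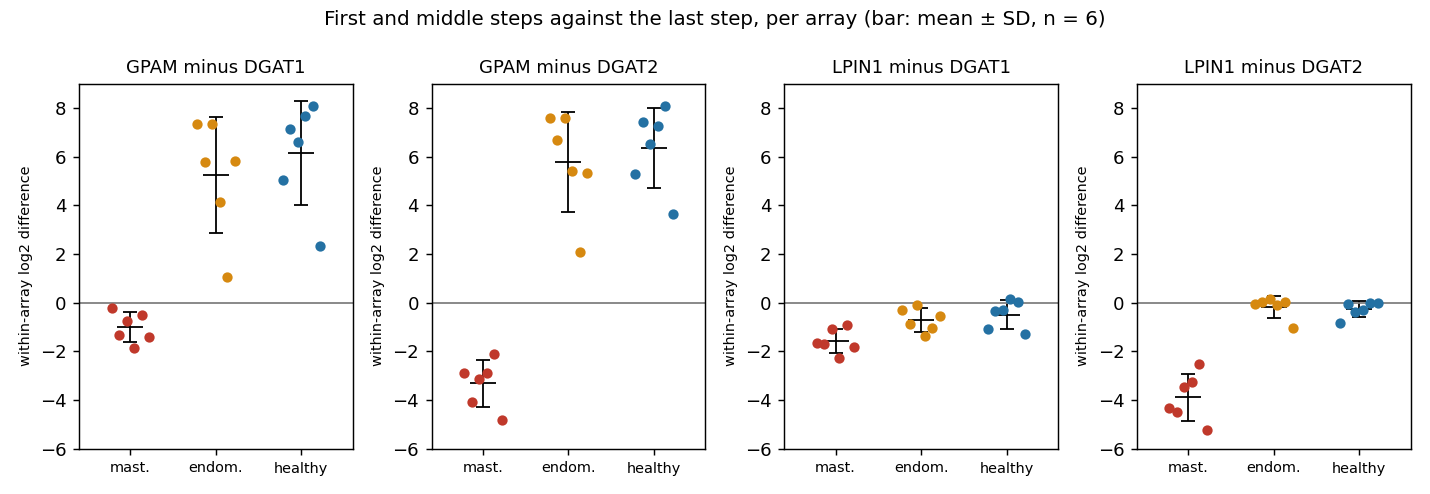
Within-array log2 difference (vertical axis) of GPAM or LPIN1 minus DGAT1 or DGAT2, with 1 panel per pair, 1 point per cow and bars at the mean ± SD of mastitis, endometritis and healthy cows (n = 6 each). GPAM minus DGAT1 and GPAM minus DGAT2 are lower on all 6 mastitis arrays than on any other array; the line at 0 has no meaning of its own, since it depends on the probe sets.

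Markers of the cell types in milk differed between the same groups. Of 15 mammary secretory markers, 14 fell in mastitis against healthy cows and 1 did not pass, and their summed log2 level ran from 85.51 to 123 in mastitis, from 134.1 to 181.7 in endometritis and from 154.9 to 180.4 in healthy cows. Of 9 epithelial structure markers, 7 fell and 2 did not pass. All 7 measured neutrophil markers of 10 named rose, with sums of 63.3 to 74.34 in mastitis, 30.6 to 50.6 in endometritis and 35.24 to 49.48 in healthy cows. Of 7 measured macrophage markers of 10 named, 0 were called with limma, and their sums ran from 40.95 to 55.91 in mastitis, 30.57 to 56.37 in endometritis and 29.49 to 49.7 in healthy cows. T cell markers (7 measured), B and plasma cell markers (3) and adipocyte and endothelial markers (5) gave 0 calls with limma, and of the last list 4 in mastitis, 4 in endometritis and 3 in healthy cows were at background on all arrays. The part of these cell types in the results for the 7 genes was not tested.

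Defining markers were measured in every group. LALBA, the milk protein alpha-lactalbumin, ran from 5.61 to 11.09 in mastitis, from 11.58 to 13.54 in endometritis and from 13.02 to 13.54 in healthy cows. CSN2, the milk protein beta-casein, ran from 6.37 to 11.54 in mastitis, from 12.00 to 13.52 in endometritis and from 13.03 to 13.51 in healthy cows. Both milk protein genes were thus lower in mastitis, without overlap. CXCR1, a neutrophil chemokine receptor, ran from 9.09 to 12.03 in mastitis, from 2.82 to 8.28 in endometritis and from 3.77 to 7.48 in healthy cows. S100A9, a neutrophil calcium-binding protein, ran from 8.66 to 12.04 in mastitis, from 2.99 to 7.52 in endometritis and from 4.18 to 6.99 in healthy cows. Both neutrophil genes were thus higher in mastitis, without overlap. CD68, a macrophage lysosomal protein, ran from 10.48 to 12.53 in mastitis, from 7.49 to 11.72 in endometritis and from 7.23 to 11.14 in healthy cows. The keratin KRT19 was near the floor in mastitis, at 2.44 to 3.86, against 4.77 to 9.28 in endometritis and 6.87 to 9.70 in healthy cows.

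The extremes of some of the 7 genes and of the marker sums fell on the same arrays, and those of others did not. Mastitis 1 had the highest GPAM (3.99) and FABP3 (7.60) of its group, the highest LALBA and the highest secretory sum, 123 against 85.51 to 98.24 on the other mastitis arrays. Endometritis 5 had the lowest GPAM, FABP3 and LALBA (11.58) of its group and its lowest secretory sum, 134.1, whereas its LPL (10.04) and CD36 (11.65) were inside the range of the group. Healthy 6 had the lowest GPAM (6.09) and FABP3 (10.75) of the healthy arrays and the lowest secretory sum, 154.9. Other extremes of these genes parted from the sum. The lowest FABP3 in mastitis, 5.11, fell on mastitis 4 with a secretory sum of 97. The lowest sum, 85.51, fell on mastitis 5, where FABP3 was 6.84. In healthy cows the highest sum, 180.4, fell on healthy 3, the highest GPAM on healthy 5 and the highest FABP3 on healthy 2. The highest DGAT2 of the endometritis arrays, 3.50, and of the healthy arrays, 3.27, fell on endometritis 6 and healthy 1, which had the highest neutrophil sums of those groups, 50.6 and 49.48. In mastitis the highest DGAT2, 7.66, fell on mastitis 6 with a sum of 68.12, while the highest sum, 74.34, fell on mastitis 2. The highest CD36 values in mastitis fell on mastitis 3 and 5, which had the highest macrophage sums of that group, 55.91 and 55.71. The highest CD36 of the other groups fell on endometritis 1 (macrophage sum 38.85, within a range up to 56.37) and healthy 2 (42.71, within a range up to 49.7). Mastitis 4, with the lowest CD36 and LPL of its group, had a macrophage sum of 44.06, above the lowest of 40.95. These coincidences are descriptions of single arrays and were not tested.

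**Figure D4:**
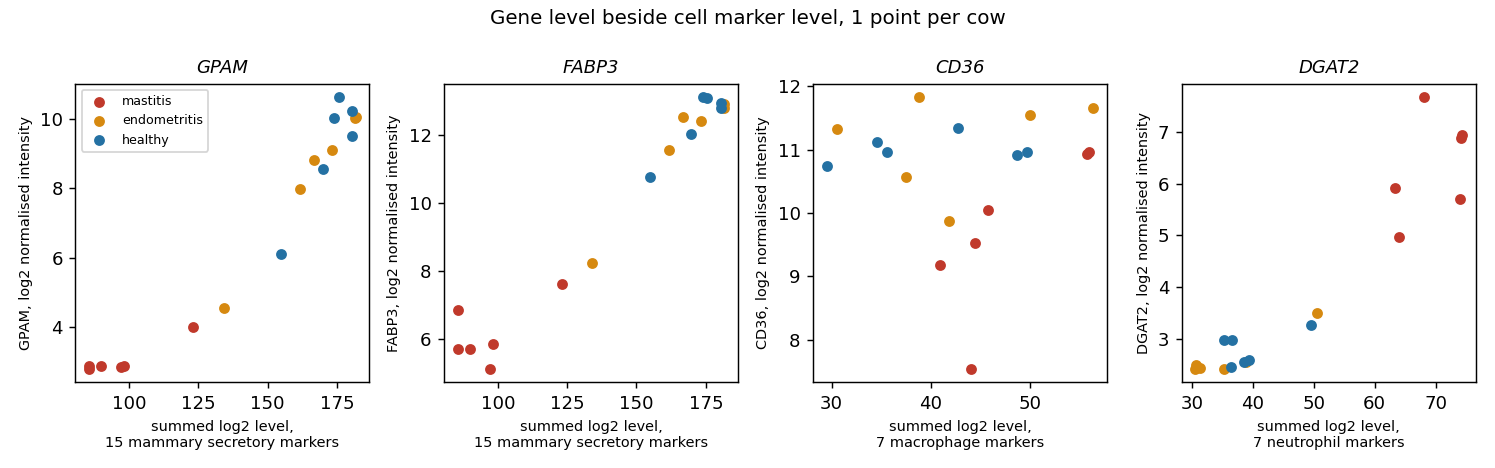
Log2 normalised intensity of GPAM, FABP3, CD36 and DGAT2 (vertical axes, 1 panel per gene) beside the summed log2 level of cell markers on the same array (horizontal axes: 15 mammary secretory markers for GPAM and FABP3, 7 macrophage markers for CD36, 7 neutrophil markers for DGAT2), with 1 point per cow coloured by group. Mastitis arrays lie at secretory sums of 85.51 to 123 with low GPAM and FABP3, and at neutrophil sums of 63.3 to 74.34 with high DGAT2.

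The genes whose pattern over the 18 arrays was most like that of each member were found by the mean absolute difference after centring each gene on its own mean, among 9154 other genes. GPAM was nearest to EFHD1 (0.381) and S100B (0.39), which encode calcium-binding proteins. FABP3 was nearest to SCD (0.363), the stearoyl-CoA desaturase that makes milk oleic acid, and next to GPAM itself (0.471). SCD averaged 4.68 ± 0.72 in mastitis, 9.90 ± 1.81 in endometritis and 10.85 ± 1.11 in healthy cows (SD, n = 6 each). LPL was nearest to MCFD2 (0.349) and to ACAT1 (0.417), a mitochondrial acetyl-CoA acetyltransferase. CD36 was nearest to DLD (0.326), the dihydrolipoamide dehydrogenase, and to ENOPH1 (0.333). DGAT2 was nearest to FAS (0.343), a death receptor, which averaged 7.17 ± 0.87 in mastitis, 3.82 ± 0.69 in endometritis and 3.72 ± 0.22 in healthy cows, and to P2RY13 (0.349), a nucleotide receptor. LPIN1 and DGAT1 spanned less than 3 log2 units over the arrays and were not matched.

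The rest of the lipid pathway was read from 5 lists with 64 measured genes beside the 7. In mastitis against healthy cows 18 of the 64 genes were called, 8 higher and 10 lower, a share of 28.1% beside 27.1% of all named genes at 1 probe set each. That share is close to the background. The median log2 difference was -0.01 for the 64 genes and -0.01 for all named genes. Against endometritis 18 were called, 6 higher and 12 lower, 28.1% beside 20% of all named genes. In endometritis against healthy cows 0 of the 64 were called with limma, and 5 had an unadjusted p under 0.05, some of which chance alone would pass. The 18 calls in mastitis against endometritis numbered 11 without mastitis 4 or without endometritis 1.

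Of 8 other acyltransferases and phosphatases on the route to triglyceride, 1 rose in mastitis against healthy cows and 7 did not pass, with a median log2 difference of 0.16. The gene that rose was GPAT3, an acyltransferase of the endoplasmic reticulum that performs the same first step as GPAM. GPAT3 had a lowest, median and highest value of 6.02, 7.78 and 8.73 in mastitis, 3.10, 3.30 and 4.80 in endometritis, and 3.16, 3.45 and 4.96 in healthy cows. It was higher in mastitis than in healthy cows by 4.02 ± 0.47 (SE), or 16.2-fold, with a limma adjusted p of 5.09e-05, and than in endometritis by 4.01, with an adjusted p of 7.05e-05. Both of its probe sets were called the same way (2 of 2), so that the first step held a gene that fell and a gene that rose. AGPAT1 and AGPAT2, acyltransferases of the second step, and MOGAT1, a monoacylglycerol acyltransferase, differed by -0.76, -0.12 and -0.24 with limma adjusted p of 0.225, 0.398 and 0.332. AGPAT2 was at background on all mastitis arrays. GPAT4, named after its value was seen, differed by 0.45 with an adjusted p of 0.544.

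Of 15 other genes of fatty acid uptake, binding and activation, 2 rose, 2 fell and 11 did not pass in mastitis against healthy cows, with a median log2 difference of 0. The called genes were acyl-CoA synthetases, which activate fatty acids, and a fatty acid transport protein. ACSL5 and ACSL6 were higher by 2.86 (7.24-fold, limma adjusted p = 0.00428) and 2.81 (7.02-fold, 0.0242). ACSL1 was lower by -2.01 (4.02-fold, 0.00423). SLC27A6, a transport protein of the plasma membrane, was lower by -2.65 (6.28-fold, 0.0168), with 2 of 6 mastitis and 1 of 6 endometritis arrays at background. With the GAPDH 3′ minus 5′ difference as a covariate these 4 calls were lost, with log2 differences of 1.76 for ACSL5 (adjusted p = 0.127), 1.55 for ACSL6 (0.416), -1.28 for ACSL1 (0.125) and -1.88 for SLC27A6 (0.262). Against endometritis ACSL5 differed by 2.25 (limma adjusted p = 0.0231), ACSL1 by -1.55 (0.0252), ACSL6 by 2.21 (0.0902) and SLC27A6 by -1.90 (0.0985). The ACSL6 call against healthy cows was also lost without healthy 3, 4 or 5 or mastitis 4, at adjusted p of 0.0528 to 0.0611. Against endometritis the ACSL1 call was lost without mastitis 1 or 4 or endometritis 1 or 3, and the ACSL5 call without endometritis 1 or 3. SLC27A6 passed there without endometritis 5 (adjusted p = 0.0382) and ACSL6 without endometritis 6 (0.0406). FABP4, an adipocyte and macrophage carrier named after its value was seen, differed from healthy cows by -2.80 ± 1.61 (SE) with a limma adjusted p of 0.276. FABP5, named in the same way, differed by 0.39 with an adjusted p of 0.834.

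Of 13 genes of lipolysis and the lipid droplet, 1 rose, 4 fell and 8 did not pass in mastitis against healthy cows, with a median log2 difference of -0.07. G0S2, an inhibitor of adipose triglyceride lipase, had a lowest, median and highest value of 12.00, 12.62 and 12.95 in mastitis, 6.34, 7.83 and 9.81 in endometritis, and 5.83, 8.33 and 9.61 in healthy cows. It was higher in mastitis than in healthy cows by 4.59, or 24.1-fold, with a limma adjusted p of 9.21e-05. PNPLA2, which encodes that lipase, was lower by -1.08 (2.11-fold, adjusted p = 0.00133), with 2 of 6 mastitis arrays at background. CIDEA, a lipid droplet protein of the lactating gland in mice, was lower by -5.20 (36.8-fold, adjusted p = 0.0013), with 3 of 6 mastitis arrays at background. PLIN3, a droplet coat protein, was lower by -1.19 (2.28-fold, adjusted p = 0.0211), and PLIN2, another one, named after its value was seen and also on the secretory marker list, by -1.89 (0.0224). The PLIN3 call was lost without healthy 5 (adjusted p = 0.0538) and with the GAPDH covariate (-0.87, 0.28). With that covariate the CIDEA difference was -3.63 (0.0445). Against endometritis the log2 differences were 4.67 for G0S2 (0.000108), -0.96 for PNPLA2 (0.00411), -4.41 for CIDEA (0.00561) and -1.21 for PLIN3 (0.0242). That PLIN3 call was lost without mastitis 1 or 4 or endometritis 1, 3 or 5, and with the GAPDH covariate (0.0535).

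**Figure D5:**
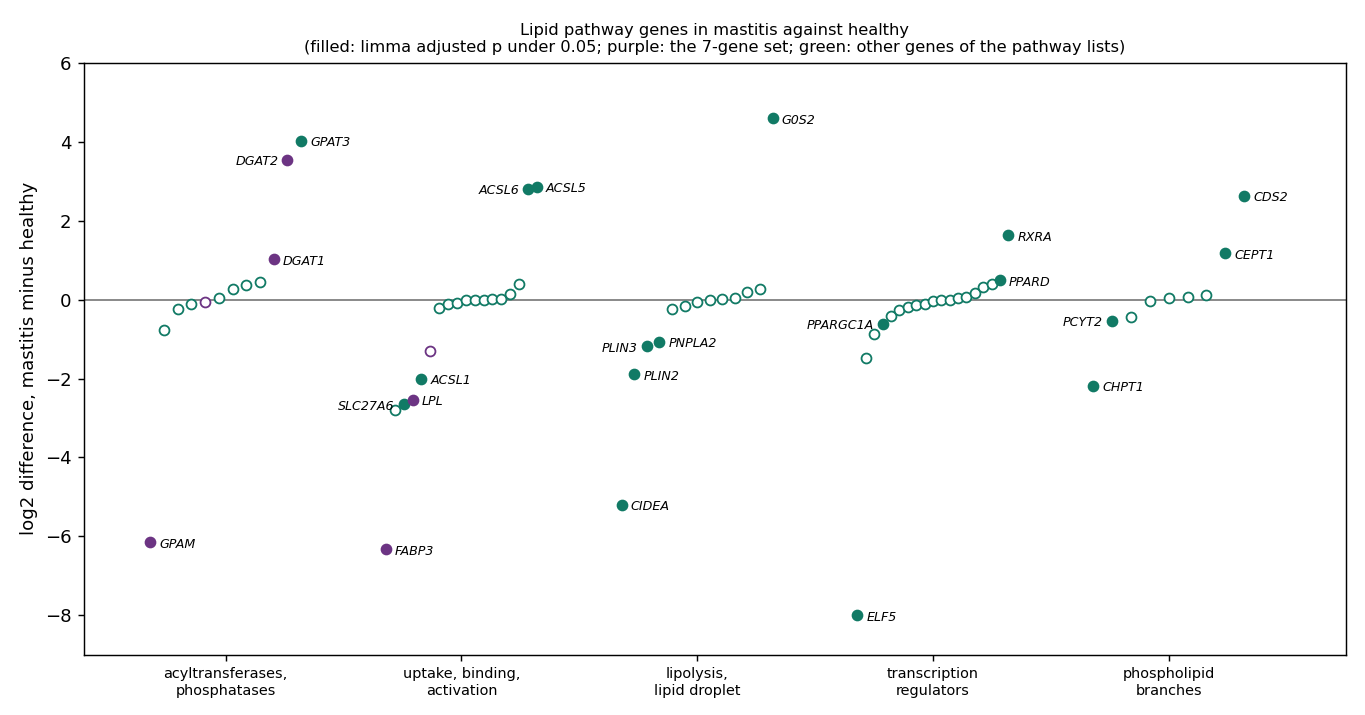
Log2 difference in mastitis against healthy cows (vertical axis) of the 7 genes, in purple, and the other measured genes of 5 lipid lists, in green, with 1 point per gene in the column of its list; filled points passed the limma test at an adjusted p under 0.05. GPAT3, G0S2 and CDS2 lie above 0 and ELF5, CIDEA, FABP3 and GPAM far below it.

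Of 19 transcriptional regulators of milk fat synthesis, 2 rose, 2 fell and 15 did not pass in mastitis against healthy cows, with a median log2 difference of -0.03. ELF5, a transcription factor of the secretory lineage that is also on the secretory marker list, was lower by -8.00, or 256-fold, with a limma adjusted p of 4.95e-05. Its values ran from 2.71 to 5.60 in mastitis, 6.13 to 12.08 in endometritis and 8.93 to 12.48 in healthy cows. RXRA, a partner of nuclear receptors, was higher by 1.64 (3.11-fold, adjusted p = 0.0198), and PPARD, a fatty acid receptor, by 0.49 (1.4-fold, 0.0275) at 1 of its 3 probe sets. PPARGC1A, a coactivator, was at background on all mastitis arrays, 4 of 6 endometritis arrays and 2 of 6 healthy arrays. It was called lower in mastitis (limma adjusted p = 0.0446) at 1 of 4 probe sets, with a healthy mean 1.43-fold above the background value. Its call was lost in each fit that left out 1 array except those without healthy 4, 5 or 6. The PPARD call was lost without healthy 2, 4 or 6 or mastitis 1, 2, 3 or 4. With the GAPDH covariate the calls of RXRA (1.22, adjusted p = 0.267) and PPARGC1A (-0.22, 0.661) were lost, and ELF5 differed by -7.31 (0.00224). Against endometritis the differences were -6.92 for ELF5 (limma adjusted p = 0.000195), 1.70 for RXRA (0.0207), 0.63 for PPARD (0.00888) and -0.07 for PPARGC1A (0.907). The RXRA call there was lost without mastitis 4 or endometritis 2. PPARG and SREBF1, regulators of lipid synthesis named after their values were seen, differed from healthy cows by -0.01 and -0.42 with limma adjusted p of 1 and 0.128. Against endometritis PPARG differed by -0.31 (0.688), and SREBF1 was lower in mastitis by -1.18 (2.26-fold, adjusted p = 0.000551) at 1 of its 4 probe sets.

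Of 9 genes that draw phosphatidic acid or diacylglycerol into phospholipids, 2 rose, 2 fell and 5 did not pass in mastitis against healthy cows, with a median log2 difference of 0.04. CDS2, a CDP-diacylglycerol synthase that uses phosphatidic acid, was higher by 2.63 (6.21-fold, limma adjusted p = 0.00101). CEPT1, a choline and ethanolamine phosphotransferase that uses diacylglycerol, was higher by 1.18 (2.26-fold, 0.0256), while its relative CHPT1 was lower by -2.18 (4.52-fold, 0.0012). PCYT2, which makes CDP-ethanolamine, was lower by -0.53 (1.45-fold, 0.00557). Against endometritis the differences were 1.94 for CDS2 (0.0102), -1.82 for CHPT1 (0.00568), 0.26 for CEPT1 (0.702) and -0.25 for PCYT2 (0.207). The CEPT1 call against healthy cows was lost without healthy 3, 4 or 5 or mastitis 2 or 5. With the GAPDH covariate the calls of PCYT2 (-0.45, limma adjusted p = 0.0996) and CEPT1 (0.64, 0.431) were lost, and CDS2 differed by 1.86 (0.035). Over all lists 8 of the 64 pathway genes were then called in mastitis against healthy cows instead of 18. Calls over all probe sets numbered 1428, or 5.95%, instead of 19.5%. The share of named genes at 1 probe set each was not taken under this covariate, so that the 64 genes have no like base here.

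The sample titles carry running numbers, and the values were also taken within the arrays numbered up to 120 and above 120, which the labels do not call batches. Among numbers up to 120 (4 mastitis and 3 healthy arrays) the log2 differences of mastitis from healthy cows were -6.15 for GPAM, 1.03 for DGAT1, 3.40 for DGAT2, -6.42 for FABP3, -2.36 for LPL and -1.13 for CD36, and FABP3 alone of these passed the limma test (adjusted p = 0.0495). Among numbers above 120 (2 mastitis and 3 healthy arrays) they were -5.95, 1.09, 3.96, -5.94, -2.74 and -1.66 in the same order of genes, and GPAM, DGAT2, FABP3 and LPL passed. The directions were those of all 18 arrays in both sets.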

How the data were processed

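RNA of milk cells from 18 cows was hybridised to Affymetrix bovine genome arrays. Per the labels' protocols, samples passed an RNA integrity number of 6, 100 ng entered the 3′ IVT Express kit, whose primer binds poly-A tails, and 10 µg were hybridised, so that probe sets far from a transcript's 3′ end depend on intact RNA. The authors deposited log2 values of normalised intensity. RMA, GCRMA and limma are named, without versions, per the submitters' processing notes. Neither the log base nor the choice between RMA and GCRMA is given in the sources used here; log2 was read from the range of 2.43 to 14.23, and each fold rests on it. The number of arrays limits the precision.

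Of 24128 probe sets, 112 controls were left out and 24016 tested; 0 columns belonged to no sample. The platform annotation gave 1 symbol for 13292, several for 86 and none for 10638, and of several probe sets of a gene the brightest on average stood for it. No genome coordinates or sequences were used here. A limma 3.58.1 model (R 4.3.3, lmFit and eBayes, two-sided) with a term per group was fitted to all 18 arrays, with 15 residual degrees of freedom, and Benjamini-Hochberg adjustment over all tested probe sets; the scripts were tested on simulated data. The p-values set group differences against the spread between these cows.

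The members and gene lists were chosen with earlier results of these data known. Named were all 7 members, from each pathway list up to 4 other genes with the smallest p in mastitis against healthy cows, 2 nearest genes for each member with a range above 3 log2 units, and 6 defining markers; other names are marked. Alternatives covered scaling, array weights, dim probe sets, the GAPDH difference, title numbers and each array left out.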

Additional observations from a re-analysis of the deposited data

Results flagged for a closer look

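For the 7 genes and the 4 pair differences, 33 groups of 6 arrays were tested for an array apart from the rest by the 95% critical value of Dixon's ratio, which chance exceeds in about 1 in 20 groups. GPAM on mastitis 1 was 3.99, with 2.79 to 2.86 on the other mastitis arrays. FABP3 on endometritis 5 was 8.22, with 11.55 to 12.91 on the others of its group. DGAT2 on endometritis 6 was 3.50, with 2.43 to 2.56 on the others, and LPIN1 minus DGAT2 on the same array was -1.05, with -0.11 to 0.17 on the others. LPIN1 was 2.57 on mastitis 1 and 2.61 on endometritis 3, with 2.45 to 2.47 and 2.45 on the others, differences that lie at the floor of the array.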

How the results depend on the processing

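Among the limits are 6 arrays per group and values that pile up at a floor. LPIN1 lies at that floor, and GPAM in mastitis, DGAT2 in the other groups and DGAT1 in healthy cows approach it. The stated days after calving also differed between the groups, a cell count limit is given for healthy cows alone, and their part was not tested. The labels pair no cows, and no paired analysis was possible because no number in them is shared between groups. With 1 probe set per member, a mean over probe sets gave nothing further and was not run. Of 594 values for the 7 genes and the 4 pairs with 1 array left out, 570 kept their direction and their side of the threshold, and of 309 under other settings 263 did. Counts of calls are given apart from these. Pair differences within the sets by title number were not tested. They counted as kept if they held their sign and moved by less than the mean SD of the groups compared. Exact permutation tests of single genes reuse the deposited differences, so that their direction could not change. The cause of the changes that follow was not tested, except that fewer arrays entered the sets by title number.

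With 1 array left out, the calls numbered 3786 to 4854 in mastitis against healthy cows, 0 to 1 in endometritis against healthy cows (1 without healthy 6) and 2639 to 3835 in mastitis against endometritis. The log2 difference of CD36 ran from -1.56 to -0.88 in mastitis against healthy cows, from -1.68 to -0.9994 against endometritis, and from -0.01594 (without endometritis 1) to 0.38 in endometritis against healthy cows. DGAT1 in mastitis against endometritis ran from 0.73 to 1.00. GPAM in endometritis against healthy cows ran from -1.37 to 0.03, and GPAM minus DGAT2 from -1.14 to 0.15, both above 0 without endometritis 5. LPIN1 minus DGAT2 in the same comparison ran from -0.01636 (without healthy 1) to 0.28, and LPIN1 in mastitis against endometritis from -0.02284 to 0.02426.

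For DGAT1 in mastitis against endometritis the call was lost in a fit of these 12 arrays alone (0.8658, adjusted p = 0.0645), with hybridisation control scaling (0.9626, 0.118), with array weights (0.6576, 0.13) and with the GAPDH covariate (0.6956, 0.0803). With that covariate DGAT1 differed by 0.5802 in mastitis and by -0.1155 in endometritis, each against healthy cows. CD36 passed against healthy cows with dim probe sets left out (-1.307, limma adjusted p = 0.0353) and after quantile normalisation (-1.628, 0.0255). Against endometritis it passed with dim probe sets left out (-1.431, 0.0282) and with arrays centred on their brighter probe sets (-1.385, 0.049). It also passed there after quantile normalisation (-1.781, 0.0203). Exact permutation tests of CD36 gave p of 0.026 against healthy cows and 0.0368 against endometritis. These are not adjusted, and the unadjusted limma p with all arrays were already 0.0174 and 0.0104.

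Hybridisation control scaling moved every probe set by 0.261 in mastitis against healthy cows, and 2896 were called, 1996 higher and 900 lower, beside 2443 higher and 2246 lower as deposited. In mastitis against endometritis 1981 were called, 1277 higher and 704 lower, beside 1919 and 1574. The GAPDH covariate left 1428 calls in mastitis against healthy cows. In endometritis against healthy cows there was 1 call with dim probe sets left out, centring, hybridisation control scaling, array weights, or trend and robust.

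Signs of small differences turned. Those under hybridisation control scaling follow from the scaling, which moved every probe set by the same amount, 0.261 in mastitis and 0.164 in endometritis against healthy cows and 0.0968 in mastitis against endometritis. LPIN1, at the floor, in mastitis against endometritis was 0.04333 with centring, 0.00321 after quantile normalisation, 0.09408 with hybridisation control scaling, 0.00211 with array weights, 0.02434 with the GAPDH covariate, 0.008746 with the title number as a block and 0.04323 above number 120. Against healthy cows LPIN1 was 0.1922 in mastitis and 0.09812 in endometritis with hybridisation control scaling, and 0.001789 in mastitis with the GAPDH covariate. DGAT2 in endometritis against healthy cows was 0.01207 with array weights. AGPAT2 in mastitis was 0.1446 against healthy cows and 0.07471 against endometritis with hybridisation control scaling, and against endometritis 0.02396 with centring and 0.01929 with the block. MOGAT1 in mastitis against healthy cows was 0.01616 with hybridisation control scaling, and PPARGC1A in mastitis against endometritis was 0.02361 with that scaling and 0.08125 with the GAPDH covariate.

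Up to title number 120 (4 mastitis, 1 endometritis and 3 healthy arrays, the lone endometritis array being assumed to vary like the others, so that values with endometritis rest on 1 cow) the calls numbered 119 in mastitis against healthy cows, 531 in endometritis against healthy cows and 813 in mastitis against endometritis. The differences that did not pass were in mastitis against healthy cows -6.149 for GPAM (adjusted p = 0.0965), 1.034 for DGAT1 (0.328), 3.402 for DGAT2 (0.0997) and -2.357 for LPL (0.121), and against endometritis -7.229 for GPAM (0.117), 1.242 for DGAT1 (0.561), 3.571 for DGAT2 (0.16) and -3.917 for LPL (0.0769). In that set endometritis differed from healthy cows by 1.08 for GPAM, -0.2085 for DGAT1 and 0.5262 for FABP3, MOGAT1 in mastitis was 0.004857 against healthy cows and 0.03916 against endometritis, and GPAM minus DGAT1 and GPAM minus DGAT2 shifted by -8.471 and -10.8 in mastitis against endometritis. In endometritis against healthy cows GPAM minus DGAT1, GPAM minus DGAT2 and LPIN1 minus DGAT1 shifted by 1.288, 1.249 and 0.09832, with the sign opposite to that of all arrays. Above 120 (2 mastitis, 5 endometritis and 3 healthy arrays) the calls numbered 2347 in mastitis against healthy cows and 4 in endometritis against healthy cows. There the call was lost for DGAT1 in mastitis against healthy cows (1.086, 0.0955), and against endometritis for GPAM (-4.675, 0.0808), DGAT1 (0.922, 0.122) and FABP3 (-4.814, 0.0548), and endometritis differed from healthy cows by -0.125 for LPL and -0.02177 for CD36. Of the 64 other pathway genes, 1 was called up to and 8 above number 120 in mastitis against healthy cows, and 3 and 5 in mastitis against endometritis.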
